A study of Homo sapiens with 28 samples.

Results

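Aminoacyl-tRNA synthetases attach each amino acid to its tRNA and so supply protein synthesis with its substrates. The enzymes described here were chosen by gene symbol, as the single-letter synthetases of the cytosol and of mitochondria, the glutamyl-prolyl enzyme EPRS1, the phenylalanyl subunits FARSA and FARSB, and the scaffold proteins AIMP1, AIMP2 and EEF1E1. Of 40 genes so named, 33 were measured by a probe set that names a single gene, out of 19777 such genes on the array: 15 of 18 cytosolic enzymes, 15 of 17 mitochondrial enzymes, both enzymes that serve the 2 compartments (GARS1 and KARS1) and 1 of 3 scaffold proteins (AIMP1). MARS1, QARS1 and TARS2 lie only on probe sets that name several genes, AIMP2 and EEF1E1 were matched to no probe set, and in all 7 of the 40 were not analysed here. All 33 measured genes passed the filter on dim signals.

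The cells derive from SK-N-AS, a neuroblastoma line, and were grown in medium with serum. In the MYCN line, titled SK-N-AS-tet in the labels, a doxycycline-controlled MYCN transgene was switched on and cells were harvested at times 0, 4, 8, 24, 48, 96 and 192 (unit not stated in the labels), on 3 arrays per time, 21 in all. The mock line, titled SK-N-AS, carries the plasmid pcDNA6TR without the MYCN transgene, received doxycycline as well, and was hybridised once per time, on 7 arrays. The labels do not say whether either line is a single clone, nor whether the 3 replicates were separate cultures, so p-values measure the spread between arrays, which may be technical. Values are deposited array signals on a linear scale, changes are differences of log2 signal, and a gene was called when its limma p-value, adjusted by Benjamini-Hochberg over 11866 genes, was under 0.05.

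MYCN itself checks the labels. Its signal was 69.4, 79.2 and 103 on the 3 arrays of time 0, 1858, 1549 and 3098 at time 4 and still 3273, 3065 and 3242 at time 192, while the mock line read 1.6 to 3 throughout. Replicates of a time correlated at 0.965 to 0.985 in log2 signal over the 11866 genes tested. The spiked hybridisation control bioD read 1544 to 1941 on the MYCN arrays of replicates 1 and 2, and 2322 to 2770 on all mock arrays and those of replicate 3. The ratio of 3′ to 5′ signal of actin, a measure of RNA integrity, was 1.10 to 1.31 on the MYCN arrays and 1.33 to 1.55 on the mock arrays. The same ratio of GAPDH overlapped between the lines, at 0.993 to 1.189 on the MYCN arrays and 1.003 to 1.164 on the mock arrays. Of the marker genes listed, 7 of 7 mesenchymal and 5 of 8 noradrenergic neuroblastoma markers were above the filter, TH and DBH stayed below it, and no Schwann cell or epithelial marker passed it. PTPRC, of leukocytes, and PECAM1, of endothelium, did pass. The summed signal of the leukocyte markers was 16.2 to 36.7 at time 0 and 5.7 to 9.8 at time 192 in the MYCN line, and 270 and 212 in the mock line. PTPRC was called lower at time 192 in the MYCN line (-2.99, limma adjusted p = 0.00274) and CD3E stayed below the filter. The summed endothelial signal was 53.3 to 70.6 and 49.4 to 107 in the MYCN line and 38.7 and 66.6 in the mock line at these times, with CDH5 and VWF below the filter. The summed signal of the noradrenergic markers with a probe set was 577 to 599.9 on the time 0 arrays of the MYCN line and 2675 on that of the mock line, so the 2 lines also differ before induction. The summed mesenchymal signal was 10906 to 12108 at time 0 and 9214 to 9908 at time 192 in the MYCN line, and 9750.1 and 8778 in the mock line. The part of these differences in the results below was not tested.

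In human cells the cytosolic and mitochondrial compartments mostly use separate nuclear-encoded enzymes for the same amino acid, written with the suffixes 1 and 2. Several of the cytosolic activities travel together in a multisynthetase complex held by AIMP1, AIMP2 and EEF1E1. MYC proteins are known to raise the transcription of genes for ribosomes and translation, and the transcription factor ATF4 is known to raise several cytosolic synthetase genes when amino acids run short.

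Of the 33 synthetase genes, 12 rose at some time after MYCN was switched on, and MARS2 rose most. A further 5 fell (FARSA, HARS1, HARS2, VARS2 and RARS2) and 16 were called at no time. Of all genes tested, 14.2% were called higher and 18.4% lower at some time. With the replicate number as a block, 18 of the 33 were called higher at time 192 alone, against 16.1% of all genes. No member was called at time 4, where 0.00843% of all genes tested were called higher and 0% lower. Unadjusted limma p was under 0.05 for 2 members, both higher (FARSB and MARS2), and for 777 of 11866 genes (284 higher, 493 lower). At time 8, 0 members and 587 of 11866 genes were lower at an unadjusted limma p under 0.05. The count called at time 8 was 2 higher (FARSB and MARS2) and 0 lower, against 0.59% and 0.177% of all genes. At time 24 it was 6 higher and 1 lower, against 3.91% higher and 3.27% lower. At time 48 it was 9 and 3, against 7.04% and 7.67%. At time 96 it was 11 and 4, against 10.3% and 13.2%, and at time 192 it was 12 and 2, against 11.6% and 14.1%. Over all 6 times together the F-test called 16 members, with a background of 25.4%. All 11 genes higher at time 96 were also higher at time 192, where YARS1 joined them. The time 0 arrays are shared by all of these comparisons.

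**Figure D1:**
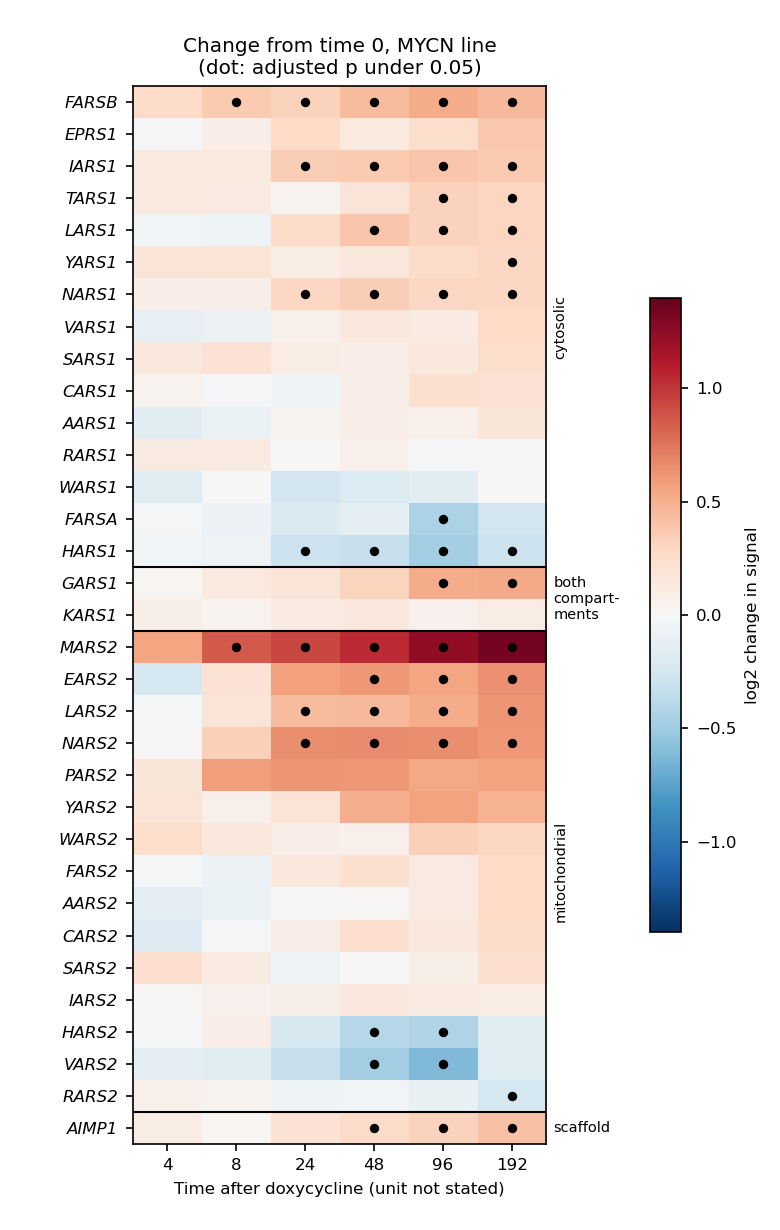
Change of each of 33 genes from time 0 in the MYCN line (colour, log2 signal) at 6 later times (columns), grouped by compartment and ordered by the change at time 192; dots mark adjusted p under 0.05. MARS2 is the darkest row, 12 genes are red with a dot at time 192, and the called falls are those of FARSA, HARS1, HARS2, VARS2 and RARS2.

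The median change of the 33 genes was 0.03, 0.09, 0.23 and 0.28 on the log2 scale at times 4, 8, 96 and 192, beside -0.03 for all genes tested at times 96 and 192. The early and middle counts depend on single arrays. Without replicate 1, 2 or 3 none was called at time 8, and without 1 array of time 0 (replicate 2 or 3) or of time 8 (replicate 1 or 2) the count was 1. At time 24 the count of 7 became 1, 2 and 4 without replicates 1, 2 and 3, and 4 without replicate 1 or 3 of that time alone. At time 48 the count of 12 became 3 without replicate 1, 2 without replicate 2, and 7 without replicate 3 of time 0 or replicate 1 of time 48. At time 96 the count of 15 became 7 without replicate 2. At time 192 the count of 14 became 9 without replicate 1 and 6 without replicate 2, and the F-test count of 16 became 5 without either. Shifting all arrays to equal medians gave 7 higher and 1 lower at time 96 and 7 higher and 0 lower at time 192.

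Replicate numbers paired the arrays of times 0 and 192 (correlations of deviations from the group means 0.129 to 0.227). With the replicate number as a block, 21 members were called at time 192, 18 higher and 3 lower, against 16.1% and 19% of all genes tested, and these held all 14 called without it. The 7 gained were EPRS1 (0.37, adjusted p = 0.0051), FARS2 (0.28, adjusted p = 0.0261), PARS2 (0.56, adjusted p = 0.0457), SARS1 (0.25, adjusted p = 0.0263), VARS1 (0.28, adjusted p = 0.0286), YARS2 (0.49, adjusted p = 0.0263) and, as a fall, FARSA (-0.27, adjusted p = 0.0299), all limma values. EPRS1 shows what the block removes: replicate 3 read higher than the other two at every time, 927 at time 0 against 685 and 673, and 1235 at time 192 against 971 and 774.

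MARS2, the mitochondrial methionyl-tRNA synthetase, changed most. Its signal was 45.8, 49.1 and 40.8 before induction, 61.1, 71.0 and 66.3 at time 4 and 82.4, 76.0 and 87.5 at time 8. It then reached 109.9, 102 and 108 at time 96 and 113, 137 and 96.9 at time 192. Every later array of the MYCN line lay above all 3 arrays of time 0. The change was 0.86 (SE 0.139, n = 3 arrays at each time, limma adjusted p = 0.00697) at time 8 and 1.35 (SE 0.139, limma adjusted p = 1.71e-06) at time 192, a 2.54-fold rise. In the mock line the signal went from 53.1 at time 0 to 43.5 at time 192. MARS2 is measured by 1 probe set, and its calls at times 48, 96 and 192 held under all 18 alternatives run, while that at time 8 was lost without replicate 1, 2 or 3, with only the 6 arrays compared, and with equal array medians.

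The promoter of MARS2 holds CACGTG, the canonical E-box that MYC–MAX dimers bind, 11 bases before the RefSeq start site. RefSeq promoters (build GRCh38.p14, 250 bases before to 50 after each start) were matched for 33 of the 40 listed genes, 28 of them among the 33 tested. The letters CACGTG occur in 5 of these 33 (15.2%; AIMP2, CARS2, EARS2, IARS1 and MARS2) and in 8.77% of all genes in the promoter table. Of the tested members with a promoter, 3 of 4 with these letters and 7 of 24 without them were called higher at time 192. Of all genes tested, 11.6% were called higher. The share among all genes with these letters was not counted, and whether calls go with the letters was not tested. A match is a run of letters and not a measured site. The stretches below are shown for the 3 of these genes that rose, with the E-box in capitals, 5′ to 3′ on the strand of the gene.
MARS2, chr2:197705338-197705368, plus strand: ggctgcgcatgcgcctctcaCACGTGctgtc
EARS2, chr16:23557351-23557385, minus strand: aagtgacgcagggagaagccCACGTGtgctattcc
IARS1, chr9:92293858-92293903, minus strand: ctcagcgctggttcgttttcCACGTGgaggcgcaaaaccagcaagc

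Among the other mitochondrial enzymes, EARS2, LARS2 and NARS2, which charge glutamate, leucine and asparagine tRNA, were higher at times 48, 96 and 192. The signal of NARS2 was 215, 213 and 220.3 at time 0, 321, 329 and 369.6 at time 24 and then 333, 350.2 and 307 at time 192. All arrays from time 8 on lay above those of time 0, and the change was 0.65 (SE 0.101, n = 3 arrays at each time, limma adjusted p = 4.91e-04) at time 24 and 0.61 (SE 0.101, limma adjusted p = 2.07e-04) at time 192, so most of the rise was present by time 24. LARS2 read 112, 117 and 98.4 at time 0, 161, 147 and 138 at time 48 and then 143, 177 and 184 at time 192, with no overlap from time 8 on and a change of 0.62 (SE 0.113, limma adjusted p = 4.71e-04) at time 192. Its second probe set changed by 0.46 at the same time. EARS2 read 138, 142 and 116 at time 0 and 167, 217 and 238 at time 192, also without overlap, and changed by 0.64 (SE 0.184, limma adjusted p = 0.0137). All 4 probe sets of EARS2 were higher at time 192, by 0.27 to 0.74, but its call at time 192 was lost without replicate 2 or replicate 3, without replicate 3 of time 0 and without replicate 3 of time 192.

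A further 8 mitochondrial enzymes were called at no time: PARS2, YARS2, WARS2, FARS2, AARS2, CARS2, SARS2 and IARS2. Their changes at time 192 were all positive, from 0.10 (IARS2, adjusted p = 0.212) to 0.56 (PARS2, adjusted p = 0.143), by limma. PARS2, which charges proline tRNA, read 28.6, 58.5 and 46.9 at time 0 and 61.5, 60.6 and 67.2 at time 192, and the spread at time 0 is as wide as the change. YARS2, which charges tyrosine tRNA, read 191, 139 and 122 at time 0 and 269, 240.0 and 139 at time 192, where replicate 3 lay inside the range of time 0. IARS2 was the steadiest of the 8, with 1675 and 1751 as the lowest and highest of time 0 and 1742 and 1967 at time 192.

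The remaining mitochondrial enzymes, VARS2, HARS2 and RARS2, which charge valine, histidine and arginine tRNA, were called lower. VARS2 read 266, 264 and 359 at time 0, 196, 181 and 197 at time 96 and then 249, 234 and 304 at time 192. The arrays of time 96 lay below all of time 0, with a change of -0.62 (SE 0.158, limma adjusted p = 0.00787), and those of time 192 overlapped it (-0.17, adjusted p = 0.476). The call at time 96 was lost without replicate 3 of time 0, the highest of these arrays, and without replicate 2. RARS2 read 528, 575 and 495 at time 0 and 478, 435 and 435 at time 192, without overlap, a change of -0.24 (SE 0.0768, limma adjusted p = 0.0239). Its 2 next brightest probe sets also read lower at time 192 (changes of -0.26 and -0.66), but the mean over all 6 sets, 3 of them below the filter, gave 0.444. The call at time 192 was lost without replicate 1, 2 or 3, and without replicate 2 of time 0 or replicate 2 or 3 of time 192 alone. Equal array medians and only the 6 arrays compared lost it too.

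**Figure D2:**
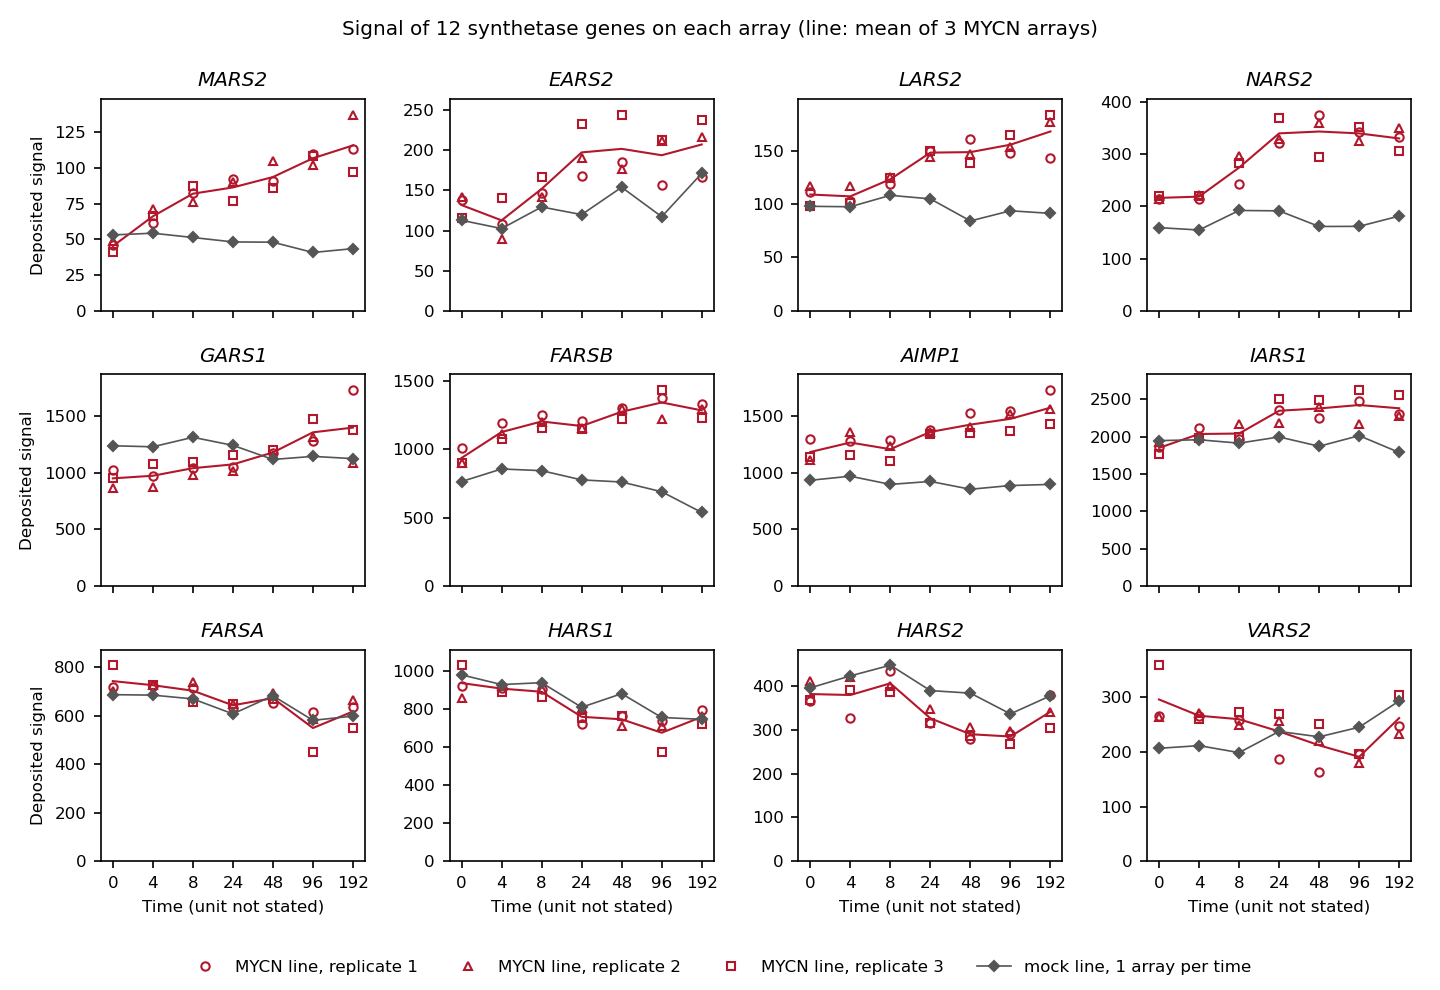
Deposited signal (linear axis from 0) of 12 genes on every array against time; red symbols are the 3 replicates of the MYCN line, the red line is their mean, and grey diamonds are the mock arrays. MARS2 climbs from 40.8 to 49.1 at time 0 to 96.9 to 137 at time 192 in the MYCN line, and FARSB reads 764 and 538 at these times in the mock line and 899 to 1008 and 1226 to 1331 in the MYCN line.

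Of the 15 cytosolic enzymes, 6 were called higher at time 192 and 1 lower, against 11.6% and 14.1% of all genes tested. A group of 7 was called at no time. The highest change was that of FARSB, the beta subunit of phenylalanyl-tRNA synthetase. FARSB read 1008, 899 and 902 at time 0, 1253, 1202 and 1154 at time 8 and then 1331, 1294 and 1226 at time 192, and every later array of the MYCN line lay above those of time 0. The change was 0.36 (SE 0.0720, n = 3 arrays at each time, limma adjusted p = 0.0217) at time 8 and 0.46 (SE 0.0720, limma adjusted p = 1.25e-04) at time 192. This rests on the brightest of 3 probe sets: the other 2, with mean signals of 40.8 and 48.3, changed by 0.19 and 0.03 at time 192. All FARSB calls from time 8 to 192 were lost when the probe sets were averaged or when sets ending in _s_at or _x_at were left out.

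FARSA, the alpha subunit of the same enzyme, went the other way. It read 717, 704 and 809 at time 0, 614, 586 and 450.3 at time 96 and then 635, 668 and 552 at time 192. From time 24 on, every array lay below those of time 0. The change was -0.45 (SE 0.100, limma adjusted p = 0.00327) at time 96 and -0.27 (SE 0.100, limma adjusted p = 0.0554) at time 192, the latter not called without the replicate block and the former lost with equal array medians. Its second probe set changed by -0.36 at time 96. As the 2 subunits assemble into a single enzyme, their ratio was followed too. The log2 ratio of FARSB to FARSA was 0.16 to 0.49 at time 0 and 0.95 to 1.67 over the 6 arrays of times 96 and 192, a difference of 0.84 (exact permutation test over 3 and 6 arrays, two-sided p = 0.0238, the smallest that 84 assignments allow, and 0.0544 adjusted over 16 pairs). In the mock line the same difference was -0.11. Both genes already stood clear of time 0 on these late MYCN arrays, in opposite directions. The ratio could therefore not overlap, and its p-value adds nothing to the single-gene values.

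IARS1 and LARS1, the isoleucyl and leucyl enzymes, belong to the multisynthetase complex. IARS1 read 1857, 1923 and 1765 at time 0, 2352, 2177 and 2507 at time 24 and then 2308, 2273 and 2555 at time 192, with no overlap at any later time, and changed by 0.36 (SE 0.0767, limma adjusted p = 0.00167) at time 192. LARS1 read 991, 1012 and 831 at time 0, 1241, 1298 and 1158 at time 48 and then 1192, 1171 and 1114 at time 192. It stood above time 0 from time 24 on, with a change of 0.30 (SE 0.0796, limma adjusted p = 0.00878) at time 192. That call was lost without replicate 1, without replicate 2 and without replicate 3 of time 0. Equal array medians, averaged probe sets and only the 6 arrays compared lost it too. The scaffold protein AIMP1 read 1296, 1110.3 and 1142 at time 0 and 1730.5, 1558 and 1433 at time 192, without overlap from time 24 on, and changed by 0.41 (SE 0.0871, limma adjusted p = 0.00169). AIMP1's other 2 probe sets changed by 0.23 and 0.14 at time 192. Its call was lost with averaged probe sets, without sets ending in _s_at or _x_at, without replicate 2 and with equal array medians. Of the other complex members measured, RARS1 changed by -0.00 (adjusted p = 0.981), KARS1 by 0.11 (adjusted p = 0.201) and EPRS1 by 0.37 (adjusted p = 0.228), by limma. In all, 3 of 6 measured genes of the complex were called higher at time 192 and 0 lower, against 11.6% and 14.1% of all genes tested. At an unadjusted limma p under 0.05, 0 of the 6 and 2367 of 11866 genes were lower. The median change of these 6 was 0.33, beside -0.03 for all genes tested.

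GARS1, a single gene for the glycyl enzyme of both compartments, rose late. It read 1025, 869.6 and 958 at time 0, 1282, 1318 and 1472 at time 96 and then 1731, 1087 and 1379 at time 192. From time 48 on no array overlapped those of time 0, though replicate 1 at time 192 stood well above the others, and the change was 0.51 (SE 0.122, limma adjusted p = 0.00465) at time 96 and 0.53 (SE 0.122, limma adjusted p = 0.00296) at time 192, where the call was lost without replicate 1. TARS1, the threonyl enzyme, read 1185, 1043 and 1080.2 at time 0 and 1440.1, 1318 and 1327 at time 192 and changed by 0.31 (SE 0.0683, limma adjusted p = 0.00260). NARS1, the asparaginyl enzyme, read 2238, 2100.1 and 2134 at time 0 and 2762, 2625 and 2500.2 at time 192 and changed by 0.28 (SE 0.0638, limma adjusted p = 0.00260). Both stood clear of time 0 at time 192, but both calls were lost without replicate 2 and with equal array medians, and that of TARS1 also when probe sets were averaged. YARS1, the tyrosyl enzyme, changed by 0.29 (SE 0.0977, limma adjusted p = 0.0328) but overlapped, with 989.7, 729 and 874 against 717, 632 and 757, and its call was lost under 12 of 19 alternatives.

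IARS1, GARS1, TARS1 and NARS1 have in common that their promoters hold TGATGNAA, read on either strand, the core of the element that ATF4 binds together with C/EBP proteins. It occurs in 8 of the 33 promoters (24.2%), in 4.46% of all genes, in 6 of 14 cytosolic enzymes (42.9%; AARS1, CARS1, IARS1, MARS1, NARS1 and TARS1), in GARS1, and in 1 of 14 mitochondrial enzymes (7.14%; YARS2). Of the tested members with a promoter, 4 of 7 that hold it and 6 of 21 that do not were called higher at time 192, beside 11.6% of all genes tested. The share among all genes that hold it was not counted, and whether calls go with it was not tested. Among those that hold it, AARS1 changed by 0.17 (limma adjusted p = 0.385) and CARS1 by 0.20 (limma adjusted p = 0.234) at time 192. YARS2 changed by 0.49 (limma adjusted p = 0.105), and none of these was called without the replicate block. FARSB rose and its promoters hold no match. The letters are shown in capitals for the 4 genes that rose and for AARS1 and CARS1, 5′ to 3′ on the strand of the gene. The stretch of YARS2 is not shown. Most of those shown read TTGCATCA, the reverse complement.
IARS1, chr9:92293698-92293730, minus strand: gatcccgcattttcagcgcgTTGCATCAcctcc
GARS1, chr7:30594825-30594872, plus strand: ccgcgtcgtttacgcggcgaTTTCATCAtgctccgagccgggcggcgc
TARS1, chr5:33440956-33440985, plus strand: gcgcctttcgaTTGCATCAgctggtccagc
NARS1, chr18:57621804-57621833, minus strand: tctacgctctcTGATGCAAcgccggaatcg
AARS1, chr16:70289666-70289713, minus strand: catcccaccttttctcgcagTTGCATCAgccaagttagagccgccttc
CARS1, chr11:3057407-3057436, minus strand: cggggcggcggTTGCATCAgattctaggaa

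HARS1 fell, and so did its mitochondrial counterpart HARS2. HARS1 read 923, 858 and 1031 at time 0, 738, 713 and 577 at time 96 and then 793, 763 and 721 at time 192, and all arrays from time 24 on lay below those of time 0. The change was -0.48 (SE 0.0885, limma adjusted p = 7.34e-04) at time 96 and -0.30 (SE 0.0885, limma adjusted p = 0.0163) at time 192. The call at time 192 was lost under 7 of 19 alternatives: without replicate 1, 2 or 3, without replicate 3 of time 0 or of time 192, with only the 6 arrays compared and with equal array medians. HARS2 read 366, 411 and 367 at time 0, 289.7, 296 and 267 at time 96 and then 379, 341 and 303 at time 192, where it overlapped time 0 again, and changed by -0.42 (SE 0.104, limma adjusted p = 0.00615) at time 96. Equal array medians ended the calls of HARS1 and HARS2 at time 96, and that of HARS2 was also lost without replicate 2. The log2 ratio of the 2 genes differed by -0.09 between time 0 and times 96 and 192 (exact permutation test, two-sided p = 0.429). Both genes start from the same short region on chromosome 5 and run apart: the RefSeq start of HARS1 is base 140691370 on the minus strand and that of HARS2 base 140691455 on the plus strand. The 84 bases between them are shown because both genes fell, on the plus strand and with no base singled out.
HARS1–HARS2 intergenic stretch, chr5:140691371-140691454, plus strand: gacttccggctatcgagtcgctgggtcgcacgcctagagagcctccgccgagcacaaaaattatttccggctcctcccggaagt

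In the mock line HARS1 went from 980.5 at time 0 to 756 at time 96 and 747 at time 192 (log2 differences of -0.37 and -0.39). The trend of HARS1, fitted over the 7 times as equal steps, was -0.07 log2 units per step in both lines. The difference was -0.00576 log2 units per time step (SE 0.0254, limma adjusted p = 0.899) and was not called. The same held for FARSA and HARS2, whose differences were -0.0234 log2 units per time step (SE 0.0271, limma adjusted p = 0.584) and -0.0254 log2 units per time step (SE 0.0348, limma adjusted p = 0.649). Of the 4 genes called lower at time 96, only VARS2 also had a called difference in trend, -0.14 log2 units per time step (SE 0.0456, limma adjusted p = 0.0247): its mock signal went from 207 to 294. RARS2, lower at time 192 alone, differed by -0.0645 log2 units per time step (SE 0.0204, limma adjusted p = 0.0209). The trend calls of VARS2 and RARS2 were lost without replicate 2, with equal array medians and when only replicate 3 and the mock arrays were fitted. That of VARS2 was also lost without the mock array of time 192. That of RARS2 was also lost without the mock array of time 0 or 96 and with averaged probe sets.

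Across all 33 genes the trend differed between the lines for 15: 13 were higher in the MYCN line and 2 lower, against 11.2% and 12.8% of all genes tested. Of the 12 genes called higher at time 192, 9 were among the 13. The other 3 were EARS2, LARS1 and YARS1. Both tests use the same MYCN arrays, so some overlap is built in, and its share over all genes was not counted. EARS2 read 113 at time 0 and 171 at time 192 in the mock line, and its trends differed by 0.0524 log2 units per time step (SE 0.0532, limma adjusted p = 0.524). YARS1 read 647 and 964 there, and its trends differed by -0.0302 log2 units per time step (SE 0.0304, limma adjusted p = 0.519). LARS1 was close to the threshold, with 0.0658 log2 units per time step (SE 0.0256, limma adjusted p = 0.0607). The largest differences were those of MARS2, 0.264 log2 units per time step (SE 0.0415, limma adjusted p = 4.21e-05), and FARS2, 0.254 log2 units per time step (SE 0.0381, limma adjusted p = 2.52e-05).

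FARS2, the mitochondrial phenylalanyl enzyme, moved more in the mock line than in the MYCN line. Its mock signal was 396, 414, 424, 305, 325, 268 and 156 at the 7 times, a trend of -0.20 (SE 0.0393, limma adjusted p = 0.0284) per step, and it read 262, 214 and 211 at time 0 and 287, 295 and 249 at time 192 in the MYCN line. It was the 1 member called in the mock line, lower, with 0 called higher, beside 1.61% of all genes called higher and 1.52% lower. Unadjusted limma p was under 0.05 for 11 of 33 members (4 higher, 7 lower) and 2750 of 11866 genes (1499 higher, 1251 lower). The count of 1 called member was 6 without the mock array of time 0 and 0 without that of time 4, 8, 24 or 192. FARSB read lower there late, from 764 to 538, and its trends differed by 0.152 log2 units per time step (SE 0.0257, limma adjusted p = 1.04e-04). YARS2, CARS2 and KARS1 differed between the lines without a call at any time, by 0.177 log2 units per time step (SE 0.0618, limma adjusted p = 0.0361), 0.096 log2 units per time step (SE 0.0355, limma adjusted p = 0.0476) and 0.0599 log2 units per time step (SE 0.0167, limma adjusted p = 0.00901). The difference count of 15 became 8 without the mock array of time 192, and the mock line has no replicate of any time.

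**Figure D3:**
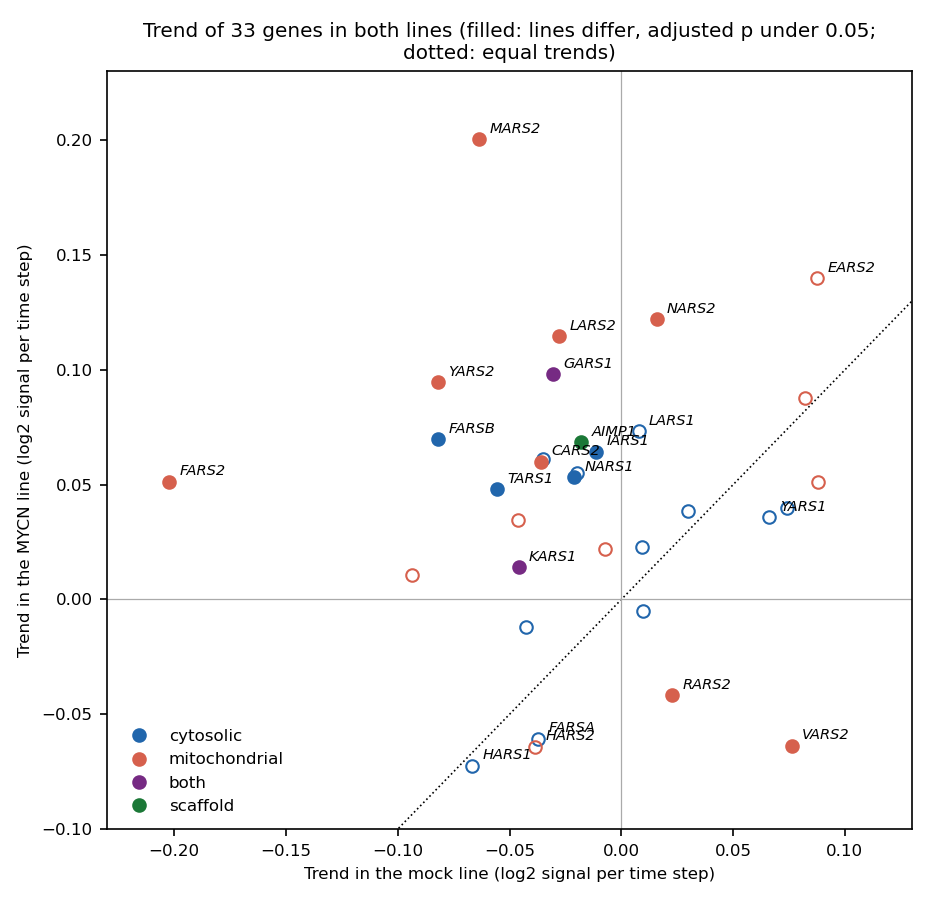
Trend per time step (log2 signal) of 33 genes in the MYCN line (vertical) against the mock line (horizontal); filled points differ between the lines at adjusted p under 0.05, and the dotted line marks equal trends. MARS2 lies highest, FARS2 farthest left, and HARS1, HARS2 and FARSA sit near the dotted line with negative trends in both.

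The cytosolic and mitochondrial enzymes were compared by their medians. At time 192 the median change was 0.28 in the 15 cytosolic and 0.28 in the 15 mitochondrial enzymes, a difference of 0.003; by replicate it was 0.113, -0.258 and -0.030 (SD 0.187, n = 3), so its sign varied. The difference of the medians was 0.030, 0.001, -0.024, -0.090 and 0.074 at times 4, 8, 24, 48 and 96, and at each of these times other than 48 the SD over replicates was larger. At time 48 the difference exceeded the SD of 0.035, but the replicates gave -0.063, 0.007 and -0.017. The differences were taken from gene means over the replicates, and that of time 48 lay outside all 3 replicate values. The SD of the replicate values is therefore no measure of its spread. With averaged probe sets the difference was -0.249 at time 24 and -0.325 at time 96, so the sign at time 96 turned with the choice of probe sets. The SDs over replicates at these times (0.125 and 0.138) are those of the brightest probe sets. They do not measure the spread of averaged ones, which take in sets below the filter. Called genes were 6 higher and 2 lower at any time among the cytosolic enzymes and 4 higher and 3 lower among the mitochondrial, against 14.2% and 18.4% of all genes. Changes at time 192 ran from -0.30 to 0.46 in the cytosol and from -0.24 to 1.35 in mitochondria. No p-value is given for a score over the members.

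**Figure D4:**
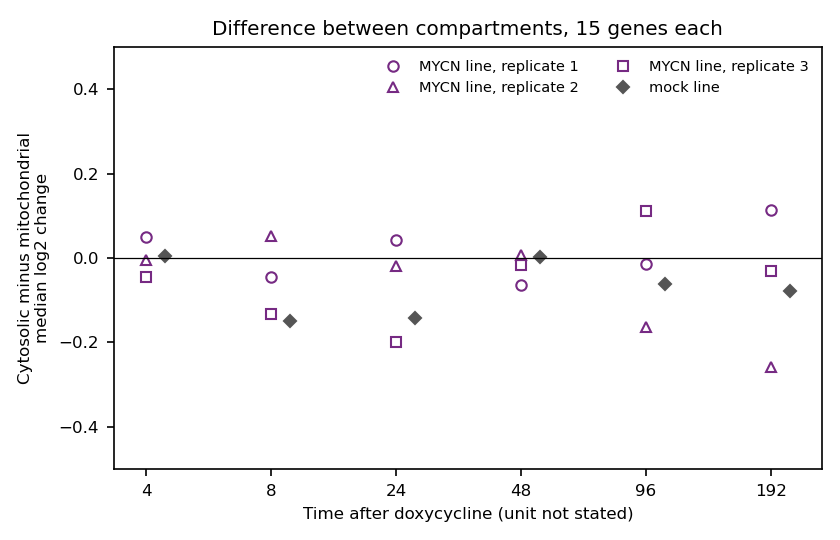
Median log2 change of 15 cytosolic enzymes minus that of 15 mitochondrial enzymes at each later time, for each replicate of the MYCN line (purple) and for the mock line (grey). The replicates lie on both sides of 0 at every time, and at time 192 they run from -0.258 to 0.113.

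Many amino acids have a cytosolic and a mitochondrial enzyme, and the log2 ratio within such a pair was compared between the 3 arrays of time 0 and the 6 of times 96 and 192, over 16 pairs. The exact permutation test cannot give less than p = 0.0238, and 0.0544 was the lowest value after adjustment over the pairs, so no pair passed. In 7 of 16 pairs the 2 groups of arrays did not overlap, against 25.2% of all pairs of tested genes. The pairs share genes and the time 0 arrays. The cytosolic gene gained on its mitochondrial counterpart in IARS1/IARS2 (0.26), VARS1/VARS2 (0.59) and FARSB/FARS2 (0.28). The mitochondrial gene gained in LARS1/LARS2 (-0.26), NARS1/NARS2 (-0.34) and FARSA/FARS2 (-0.56). FARSB/FARSA, 2 subunits of a single enzyme, is the seventh, and its lack of overlap follows from the single-gene values above. WARS1/WARS2, tryptophanyl enzymes, differed by -0.39 (exact permutation test over 3 and 6 arrays, two-sided p = 0.0476) with overlap. In the mock line the same differences, from 1 array of time 0, were 0.03 for IARS1/IARS2, -0.58 for VARS1/VARS2, 0.63 for FARSB/FARS2, 0.13 for LARS1/LARS2, -0.18 for NARS1/NARS2 and 0.73 for FARSA/FARS2. IARS1/IARS2, FARSB/FARS2 and NARS1/NARS2 had the same sign in both lines.

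The remaining pairs overlapped too. AARS1/AARS2, CARS1/CARS2, HARS1/HARS2 and SARS1/SARS2, for alanine, cysteine, histidine and serine, differed by -0.08, 0.01, -0.09 and 0.03. RARS1/RARS2, YARS1/YARS2, EPRS1/EARS2 and EPRS1/PARS2 differed by 0.17, -0.25, -0.28 and -0.24, with exact p-values of 0.143, 0.31, 0.333 and 0.405. VARS1, the cytosolic valyl enzyme, itself read 480.0, 404 and 561 at time 0 and 584, 556 and 600.0 at time 192 (change 0.28 (SE 0.129, limma adjusted p = 0.120)), and at time 96 its change was 0.12 beside -0.62 for VARS2. WARS1 read 376, 367 and 308 and 409, 329.5 and 312, and SARS1 658, 697 and 672 and 983, 777 and 678, at the same times, with changes of -0.00 and 0.25 that were not called.

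**Figure D5:**
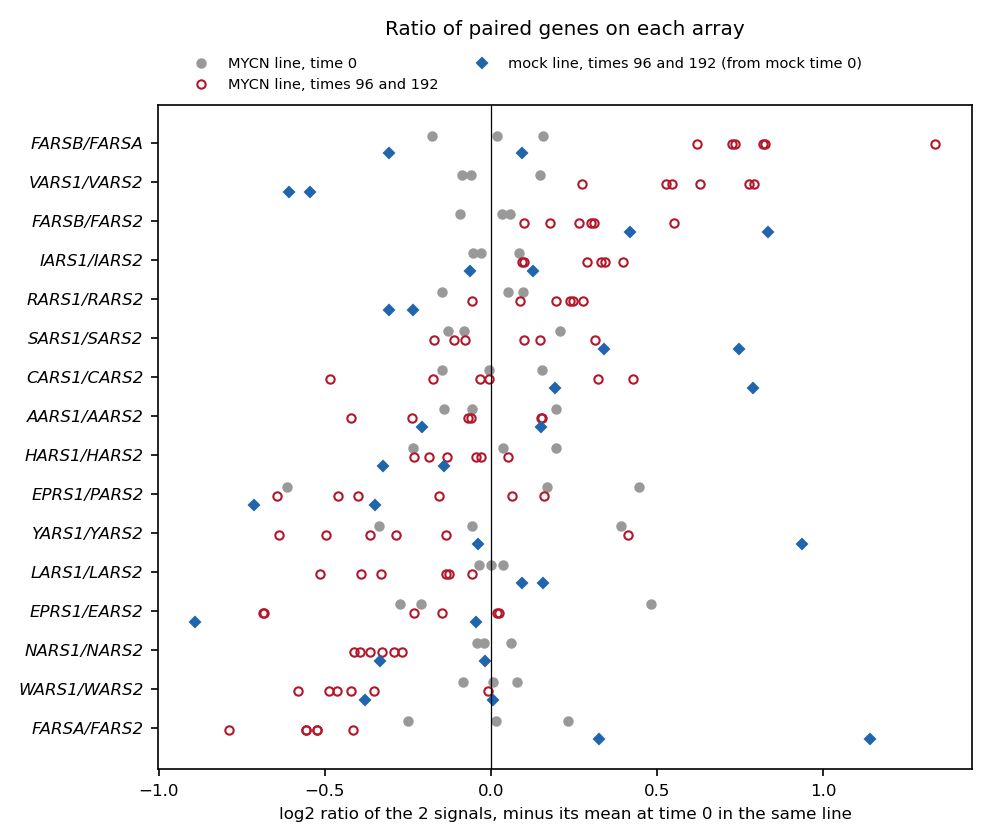
Log2 ratio of 16 gene pairs on each array, minus the mean of time 0 in the same line; grey points are the 3 arrays of time 0, open red points the 6 of times 96 and 192 in the MYCN line, and blue diamonds the 2 late mock arrays. FARSB/FARSA lies farthest to the right, at 0.84 on average, and FARSA/FARS2 farthest to the left, at -0.56.

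Some genes for the steps around tRNA charging were called too, and all shares of the whole array at time 192 are those given above (11.6% higher and 14.1% lower). Of 11 tested genes for other charging and proofreading steps, 5 were called higher at time 192 and 0 lower by limma, with a median change of 0.17. At an unadjusted limma p under 0.05, 1 of the 11 was lower, beside 2367 of 11866 genes. The 4 with the smallest F-test p were PSTK, a kinase of selenocysteine synthesis, at 0.90 (SE 0.130, limma adjusted p = 5.50e-05), QRSL1, a subunit of the mitochondrial glutaminyl-tRNA amidotransferase, at 0.71 (SE 0.129, limma adjusted p = 4.75e-04), MTFMT, which formylates mitochondrial initiator methionyl-tRNA, at 0.80 (SE 0.152, limma adjusted p = 6.95e-04), and SEPHS2, a selenophosphate synthetase, at -0.24 (SE 0.0965, limma adjusted p = 0.0804). MTFMT acts on the product of MARS2. Of 40 tested genes of tRNA maturation and export, 15 were called higher and 2 lower, with a median of 0.19. They were led by the pseudouridine synthases PUS7 at 0.93 (SE 0.0811, limma adjusted p = 2.44e-07) and PUS1 at 0.92 (SE 0.117, limma adjusted p = 1.51e-05) and by WDR4, a subunit of a tRNA methyltransferase, at 0.57 (SE 0.0961, limma adjusted p = 2.30e-04). TRMT5, another tRNA methyltransferase, was called lower at -0.44 (SE 0.0737, limma adjusted p = 2.28e-04).

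Of 26 tested genes of the ATF4 amino acid response, 13 were called higher at time 192 and 1 lower, with a median of 0.53, beside -0.03 for all genes. The 4 with the smallest F-test p were SLC7A5, a transporter of large neutral amino acids, at 2.20 (SE 0.308, limma adjusted p = 3.95e-05), TRIB3, a pseudokinase induced by ATF4, at 1.003 (SE 0.134, limma adjusted p = 2.51e-05), ALDH18A1, of proline synthesis, at 0.85 (SE 0.0940, limma adjusted p = 3.26e-06), and MTHFD2, of mitochondrial one-carbon metabolism, at 0.64 (SE 0.0980, limma adjusted p = 9.73e-05). Chosen outside that rule, after their values were seen, ATF4 itself changed by -0.07 (limma adjusted p = 0.74) and ASNS, the asparagine synthetase and a textbook ATF4 target, by 0.29 (limma adjusted p = 0.372). By trend the lines differed for 10 genes higher and 2 lower on this list, for 18 and 0 on tRNA maturation and for 5 and 0 on other charging factors, against 11.2% and 12.8% of all genes tested.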

How the data were processed

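Total RNA of 28 samples was hybridised to single-colour Affymetrix arrays, 1 per sample. The authors deposited a linear, unlogged intensity for each probe set on each array; MAS5 and GCOS are named per the submitters' processing notes, without versions, and a mean of 100 was found on all arrays once 2% was trimmed from both tails. The file holds 54675 probe sets, of which 41091 name 1 gene by the platform annotation, 1801 several and 11721 none, beside 62 controls; 41037 of the single-gene sets matched a current gene identifier, and 0 columns belonged to other samples. Signals of 0 or less (91 in all) were raised to 0.1, values were taken to log2, and each of 19777 genes was represented by its brightest single-gene probe set. The dimmest genes, under the 40th percentile of mean log2 (a signal of 12.8), were left out, so that 11866 were tested. The number of arrays limits the precision.

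Fits were made with limma 3.58.1 in R 4.3.3 (lmFit, then eBayes with an intensity trend), tested first on simulated data. Times were compared with time 0 over the 21 MYCN arrays (14 residual degrees of freedom), with an F-test over 6 contrasts. A trend on the time step was fitted to the 7 mock arrays (5 residual degrees of freedom), and its difference between the lines to all 28 (24). P-values were two-sided and adjusted by Benjamini-Hochberg over all genes tested. Ratios within gene pairs were compared by an exact permutation test, added after seeing the data. Promoter sequences are those of RefSeq.

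Replicate numbers paired the arrays at times 4, 8 and 192, where every correlation of deviations with time 0 was above 0.1 (lowest 0.129), and not at times 24, 48 and 96 (lowest -0.061). Alternatives were 2 other scalings (quantile, equal medians), other choices of probe set, filter and low values, blocks for the replicate number and the spiked controls, and leaving out arrays. The members and lists were chosen with earlier results of these data known. All measured members are named; values are given in full for those called at times 96 or 192 and for each pair, and up to 4 genes per other list were named by smallest F-test p, beside ATF4 and ASNS.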

Additional observations from a re-analysis of the deposited data

Results flagged for a closer look

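A total of 15 genes had a trend per time step that differed between the MYCN and the mock line (interaction of line and time step over 28 arrays, limma adjusted p under 0.05). The MYCN line was higher for MARS2 (0.264 log2 units per step), FARS2 (0.254), YARS2 (0.177), FARSB (0.152), LARS2 (0.142), GARS1 (0.129), NARS2 (0.106), TARS1 (0.104), CARS2 (0.096), AIMP1 (0.0863), IARS1 (0.0759), NARS1 (0.0744) and KARS1 (0.0599). It was lower for RARS2 (-0.0645) and VARS2 (-0.14). The differences of MARS2, FARS2, LARS2 and GARS1 stayed past the threshold under every alternative run for them (18 or 19). Those of YARS2, NARS2, CARS2, RARS2 and VARS2 were lost when only replicate 3 and the mock arrays, which share the level of the spiked controls, were fitted.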

How the results depend on the processing

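The number of called members kept within 1.5 times of its value under quantile scaling, log2(intensity + 16), no filter, the replicate block (17 at time 48, 21 at time 192, 22 by the F-test) and the spiked-control block, at every time. Equal array medians gave 0, 3, 3, 8 and 7 calls at times 8, 24, 48, 96 and 192 and 5 by the F-test. Averaging probe sets gave 1 at time 8, 9 at time 192, 10 by the F-test and 0 in the mock line. Leaving out sets ending in _s_at or _x_at gave 1, 4, 7 and 8 at times 8, 24, 48 and 192 and 8 by the F-test. The 60th percentile filter gave 1 at time 8, and only the 6 arrays compared gave 0, 3 and 4 at times 8, 24 and 48. Leaving out replicates or single arrays gave 0 to 2 at time 8, 1 to 8 at time 24, 2 to 12 at time 48, 7 to 16 at time 96, 6 to 15 at time 192, 5 to 12 by the F-test, 0 to 6 for the mock trend and 8 to 17 for the difference in trend. Cytosolic minus mitochondrial medians became 0.0783 (time 4), -0.249 (time 24) and -0.325 (time 96) with averaged probe sets, and 0.0813, -0.0988, -0.135 and -0.146 at times 4, 8, 48 and 96 without _s_at and _x_at sets. The 60th percentile filter gave -0.0112 at time 48. Leaving out arrays gave -0.0193 to 0.0761 at time 4, -0.109 to 0.0378 at time 8, -0.127 to 0.000137 at time 48 and -0.103 to 0.0931 at time 96. Averaged probe sets reversed TARS1 at time 96 (-0.00385), RARS2 at time 192 (0.444) and the difference in trend of RARS2 (0.0852); each has at least 1 probe set below the filter. Otherwise the cause was not tested. Dim probe sets and 3 arrays per time limit what can be seen.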

Other observations

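Both structural classes of synthetase held risers. Of 16 measured class I enzymes, 6 were called higher and 1 lower at time 192 (median change 0.29), and of 15 class II enzymes 5 were called higher and 1 lower (median 0.28). Of all genes tested, 11.6% were called higher and 14.1% lower at that time (median -0.03).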
